A study of Arabidopsis thaliana with 12 samples.

Results

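Beta carbonic anhydrases are zinc enzymes that interconvert carbon dioxide and bicarbonate. The family in Arabidopsis thaliana has 6 genes: CA1 (AT3G01500), CA2 (AT5G14740), CA3 (AT1G23730), CA4 (AT1G70410), CA5 (AT4G33580) and CA6 (AT1G58180). They were taken by locus identifier, and all 6 were found among the 33602 loci of the gene expression table. The family was selected on the RPKM values of these same columns, since CA1 was known to have a very low value in lba1 upf3-1, and all 6 genes were kept whatever their values. Transcripts were sequenced from whole seedlings, aged 11 days, of the Columbia accession in 12 libraries, which the labels place in 6 groups of 2. The study compared normal seedlings with seedlings impaired in nonsense-mediated decay (NMD), which removes mRNAs that carry an early stop codon. The deposited table gives 1 column for each group, in RPKM (reads per kilobase, corrected for the depth of each column), so differences between columns have no replicate check and no SD or p-value can be given.

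The untreated groups were wild type, the UPF1 mutant lba1 (labelled upf1-/-), the UPF3 mutant upf3-1 (labelled upf3-/-) and lba1 upf3-1, which carries both mutations (labelled upf1-/-upf3-/-). Wild-type seedlings were also moved to liquid MS medium for 4 h, either plain (mock) or with cycloheximide at 10 µg/ml, an inhibitor of the translation on which NMD depends. All seedlings grew under continuous light on half-strength MS medium with 2% sucrose. UPF1 is the RNA helicase of the pathway and UPF3 a partner of it. Because lba1 is a point mutation, the level of the UPF1 transcript does not check that label, and it lay between 19.2 and 29.4 RPKM in all 6 columns. The UPF3 transcript lay at 4.82 and 4.95 RPKM in the 2 columns labelled upf3-1, against 13.1 to 25.4 in the other 4.

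CA1 is an enzyme of the chloroplast stroma and among the most abundant proteins of the leaf, CA2 and CA3 are cytosolic, CA4 is found at the plasma membrane and in the cytosol, CA5 is chloroplastic and CA6 mitochondrial. CA1 and CA4 act together in guard cells, where they take part in the closing of stomata by carbon dioxide, and CA1 is also known as salicylic acid-binding protein 3. The reference annotation lists 4 transcripts for CA1, 9 for CA2, 2 for CA3, 3 for CA4, 3 for CA5 and 7 for CA6. The table sums all transcripts of a gene into 1 value, so these forms were not separated.

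CA1 was the most abundant member in 5 of the 6 columns and among the least abundant in lba1 upf3-1. Its level was 1223 RPKM in wild type, 164 in mock and 210 with cycloheximide. Among the mutants it was 887 RPKM in lba1, 756 in upf3-1 and 7.78 with both mutations. It ranked 17th of all loci in wild type and 10505th in lba1 upf3-1. The columns fell into 3 levels: the untreated wild type and single mutants were high, both incubated columns were several-fold lower, and lba1 upf3-1 was far below these. The wild-type level was 157 times that in lba1 upf3-1, which lay below mock as well.

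CA2 shared the low values in lba1 upf3-1 and in mock, but was lower again with cycloheximide. It reached 318 RPKM in wild type, 65.0 in mock and 29.0 with cycloheximide. Among the mutants it reached 219 RPKM in lba1, 238 in upf3-1 and 4.20 with both mutations. The wild-type level was 75.6 times that in lba1 upf3-1. CA1 and CA2 are close relatives, and how reads that match both were counted is not given in the sources used here.

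CA4 was steady in the untreated wild type and single mutants, lowest in lba1 upf3-1 and highest with cycloheximide. Its levels were 47.1 RPKM in wild type, 29.9 in mock and 64.8 with cycloheximide, and 42.1 in lba1, 44.2 in upf3-1 and 8.69 with both mutations. CA5 was at 24.4 RPKM in wild type, 17.3 in mock and 4.22 with cycloheximide, and at 28.1 in lba1, 23.7 in upf3-1 and 8.56 with both mutations. CA5 therefore had its lowest value in the column in which CA4 had its highest.

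CA3, a minor member in wild type, was the most abundant in lba1 upf3-1. It was at 9.52 RPKM in wild type, 5.37 in mock and 1.13 with cycloheximide, and at 4.30 in lba1, 13.2 in upf3-1 and 51.8 with both mutations. The values of lba1 and upf3-1 lay on either side of wild type. CA6 was at 19.5 RPKM in wild type, 23.8 in mock and 11.0 with cycloheximide, and at 40.5 in lba1, 25.8 in upf3-1 and 46.6 with both mutations. It was the only member whose levels in all 3 mutants exceeded wild type under the scaling of the deposited table, and the 2 columns with lba1 held its highest values.

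**Figure D1:**
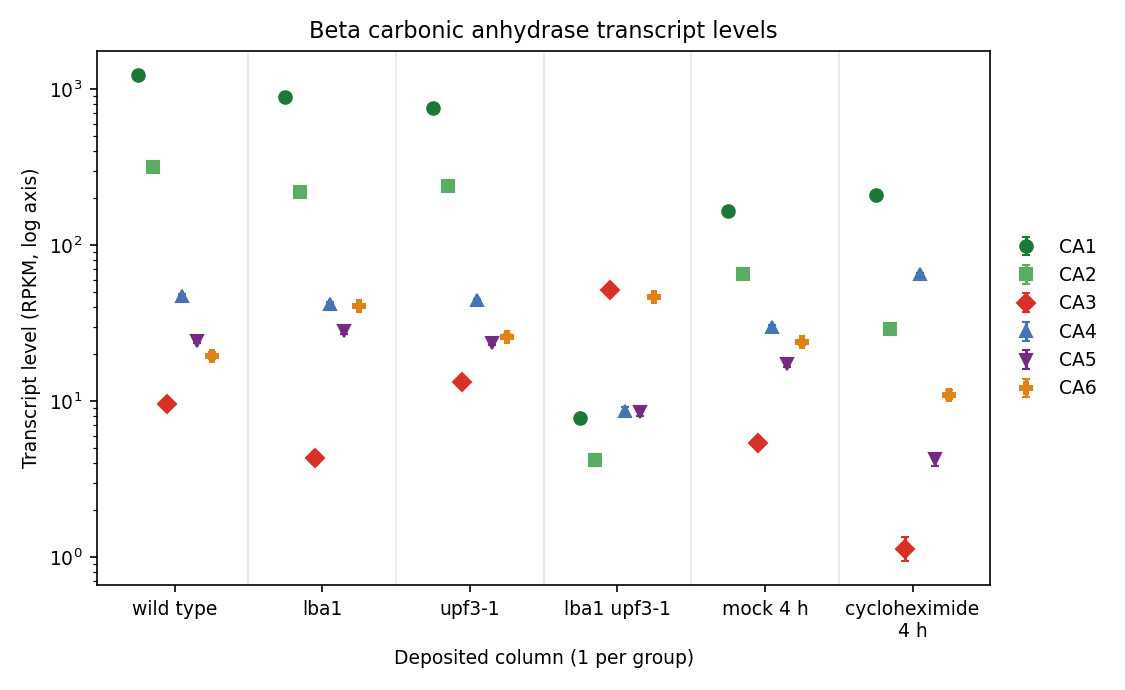
Transcript level of each beta carbonic anhydrase (RPKM, log axis) in the 6 deposited columns, 1 point per column. Bars are exact Poisson 95% intervals for counting error, mostly smaller than the symbols. CA1 and CA2 lead in wild type at 1223 and 318 RPKM. Each has its own lowest value in lba1 upf3-1, where CA3 and CA6 lead at 51.8 and 46.6 RPKM.

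Implied depths were 83 to 91.5 M reads per column, so counting error on these levels was small. In lba1 upf3-1, CA1 rested on about 883 reads and CA2 on about 494. The least certain value was CA3 with cycloheximide, on about 124 reads, with an exact Poisson 95% interval of 0.942 to 1.35 RPKM. In lba1 upf3-1 the level of CA5, at 8.56 RPKM, lay inside the interval of CA4 (8.21 to 9.20 RPKM), so the order of these 2 members is not resolved. The interval of CA1 in that column (7.27 to 8.31 RPKM) overlapped those of CA5 and CA4 at its upper end. In lba1 the intervals of CA4 (41.0 to 43.2 RPKM) and CA6 (39.2 to 41.8) overlapped. Within a gene, CA5 in upf3-1 and wild type could not be separated, at −0.04 ± 0.08 on the log2 scale. CA4 differed between lba1 and upf3-1 by −0.07 ± 0.05. These intervals cover counting error only, and variation between the libraries of a group is unknown.

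In lba1 upf3-1 both the level and the composition of the family differed from wild type. The summed level of all 6 members was 1641 RPKM in wild type, 306 in mock and 321 with cycloheximide, and 1221 in lba1, 1101 in upf3-1 and 127.7 with both mutations. CA1 and CA2 together made up 93.9% of the sum in wild type, 75.0% in mock and 74.7% with cycloheximide. They made up 90.6% in lba1 and 90.3% in upf3-1, but 9.38% with both mutations. The other 4 members together were at 100.6 RPKM in wild type and 116 in lba1 upf3-1. In lba1 upf3-1, CA3 held 40.6% and CA6 36.5% of the sum, against 0.580% and 1.19% in wild type. Shares and orders between genes also rest on the gene lengths used for RPKM, which were not given.

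**Figure D2:**
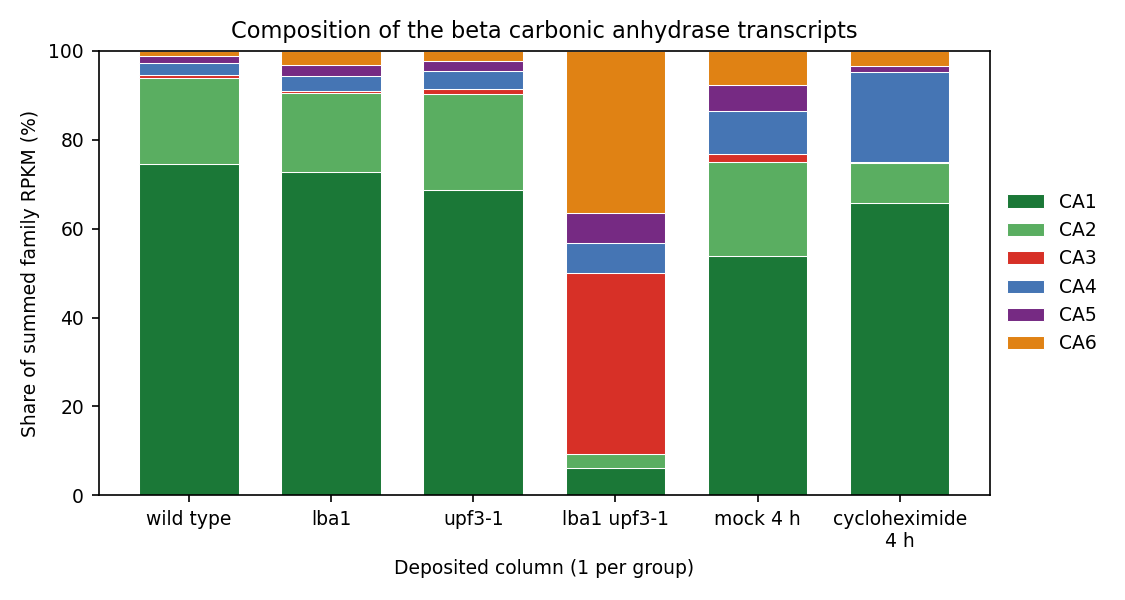
Share of each member in the summed RPKM of the family (%), 1 bar per deposited column. CA1 holds 74.5% in wild type and 6.09% in lba1 upf3-1, and CA4 holds 20.2% with cycloheximide against 9.79% in mock.

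The balance between members also moved with cycloheximide. The ratio of CA1 to CA2, which is the same under any single scaling factor per column but not under quantile normalization, was 3.85 in wild type, 2.53 in mock and 7.26 with cycloheximide, and 4.06 in lba1, 3.18 in upf3-1 and 1.85 with both mutations. CA4 exceeded CA2 by 2.24 times with cycloheximide and by 2.07 times in lba1 upf3-1, whereas it was at 0.460 of CA2 in mock and 0.148 in wild type. The high CA1 to CA2 ratio under cycloheximide and the low ratio in lba1 upf3-1 lay on opposite sides of wild type.

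Differences were taken on log2(RPKM + 0.5), which makes changes of low genes look smaller than they are. A gene is called higher or lower where 2 columns differ at least 2-fold on it, which is a size limit with no test behind it. The limit was applied to 14079 genes whose values over all columns averaged 5 RPKM or more, and all 6 members are among them. The plus or minus values below are 95% counting errors. Comparisons of the 3 mutants and of mock share the wild-type column, so their values are mostly set side by side. They are combined only in the sum of the single-mutant differences below.

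The comparison of lba1 upf3-1 with wild type asks how both mutations together alter the transcriptome. All 6 members were past 2-fold, 4 lower and 2 higher, where 43.3% of the genes described were past it in either direction (21.2% lower and 22.1% higher). CA1 was lower by a log2 difference of −7.21 plus or minus 0.09, and only 3 genes had a lower value. CA2 was at −6.08 plus or minus 0.11, with 15 genes below it. CA4 was at −2.37 and CA5 at −1.46, while CA3 was at 2.38 and CA6 at 1.23. The median of the 6 was −1.92, against 0.12 over all genes described, but the members at either end went in opposite directions. The members were listed with values of this comparison already known, so the count is a description.

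Against the single mutants the same column gave the same picture for 5 members. Compared with lba1, 1 member was higher and 4 lower, where 39.8% of all genes were past 2-fold (17.7% higher and 22.1% lower). CA1 was at −6.75, CA2 at −5.54, CA4 at −2.21 and CA5 at −1.66, and CA3 was at 3.45. Compared with upf3-1, where 37.5% of all genes were past 2-fold (16.6% higher and 20.9% lower), CA1 was at −6.51, CA2 at −5.66, CA4 at −2.28, CA5 at −1.42 and CA3 at 1.93. CA6 was within 2-fold of both, at 0.20 from lba1 and 0.84 from upf3-1.

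In the single mutants most members were within 2-fold of wild type. In lba1, where 6.71% of all genes were past 2-fold (4.77% higher and 1.93% lower), CA6 was higher at 1.03 plus or minus 0.08 and CA3 lower at −1.06 plus or minus 0.14, both close to the limit of the rule. Median scaling changed the share of higher genes among those past 2-fold from 71.2% to 55.7% and put CA6 at 0.88. CA1 (−0.46), CA2 (−0.54), CA4 (−0.16) and CA5 (0.20) were within it. In upf3-1 no member was past 2-fold, where 4.35% of all genes were (3.81% higher and 0.547% lower), and the values ran from −0.69 for CA1 to 0.45 for CA3. Directly compared, lba1 was below upf3-1 by −1.51 in CA3, the only member past 2-fold, where 4.78% of all genes were (0.945% higher and 3.84% lower). The next largest difference was that of CA6, at 0.64.

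The sum of both single-mutant differences was set beside the value in lba1 upf3-1 for each member. For CA1 the sum was −1.15 and the observed value −7.21, a gap of −6.05. For CA2 the sum was −0.96 against −6.08, for CA4 −0.25 against −2.37, and for CA5 0.16 against −1.46. For CA3 the sum was −0.61 and the observed value 2.38. For CA6 the sum was 1.43 and the observed value 1.23. Over all genes described the median gap was −0.03, but a signed median stays small where wide gaps in both directions balance. The share of genes with gaps as wide was not computed. Past 2-fold from wild type were 43.3% of all genes in lba1 upf3-1, 6.71% in lba1 and 4.35% in upf3-1. The wild-type column enters the sum more than once, so any deviation of that column acts on these gaps.

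**Figure D3:**
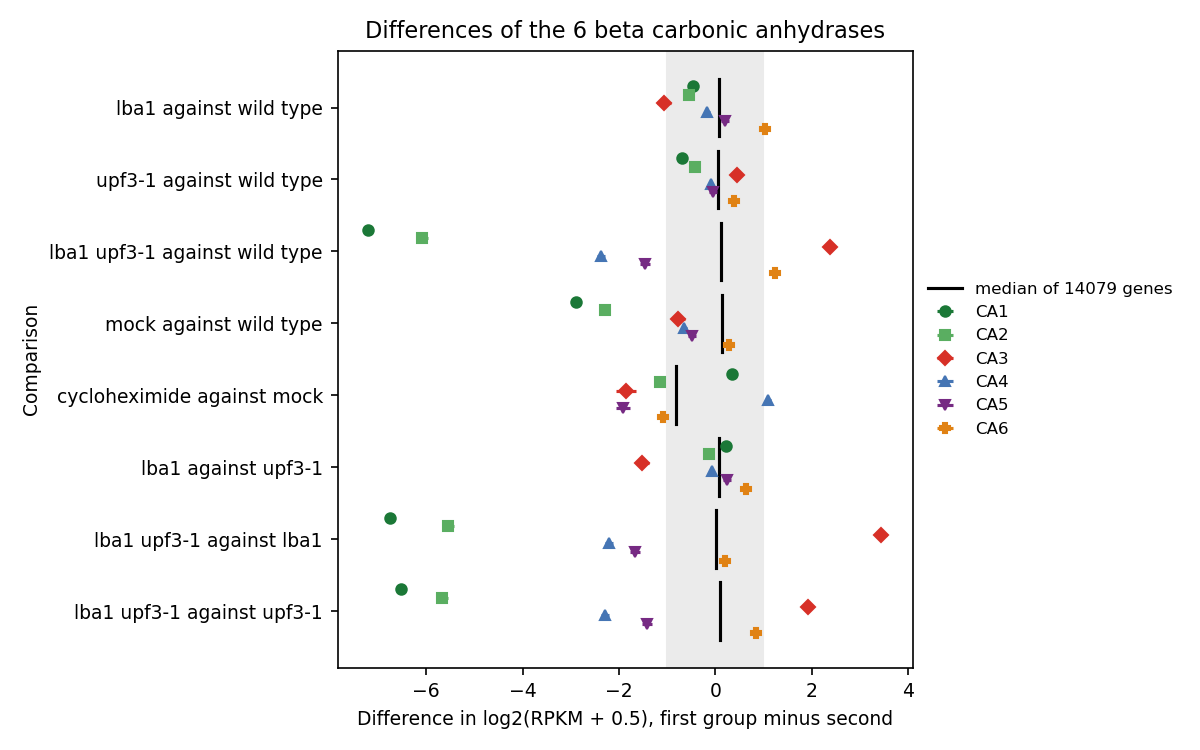
Differences in log2(RPKM + 0.5) of the 6 members in the 8 comparisons, first group minus second, with 95% counting error bars. The grey band marks differences under 2-fold and the black line the median of all genes described. CA1 and CA2 lie at −7.21 and −6.08 in lba1 upf3-1 against wild type, and CA1 and CA4 lie above the median with cycloheximide.

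Transfer of wild-type seedlings to liquid medium for 4 h, without any drug, was accompanied by lower CA1 and CA2. CA1 differed from untreated wild type by −2.89 plus or minus 0.02, with 66 genes below it, and CA2 by −2.28 plus or minus 0.04, with 214 below it. These were the only 2 members past 2-fold, where 26.1% of all genes were (14.2% higher and 11.9% lower). CA3 was at −0.77, CA4 at −0.65, CA5 at −0.48 and CA6 at 0.28. Mock and untreated seedlings differed in handling and in medium, and these cannot be told apart.

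With cycloheximide against mock, 4 members were lower and 1 higher, where 57.4% of all genes were past 2-fold (44.1% lower and 13.3% higher). CA5 was at −1.92, CA3 at −1.84, CA2 at −1.15 and CA6 at −1.08, while CA4 was at 1.1 and CA1 at 0.36. The median over all genes was itself −0.81 in this comparison. Relative to it, CA4 stood at 1.91, CA1 at 1.17, CA6 at −0.27, CA2 at −0.34, CA3 at −1.03 and CA5 at −1.11. Scaling the columns to a common median put CA1 past 2-fold at 1.12, took CA2 to −0.39 and CA6 to −0.34, and changed the share of higher genes among those past 2-fold from 23.1% to 47.5%. Quantile normalization put CA1 at −0.05, so neither its direction nor its call is fixed, whereas CA4 was higher and CA3 and CA5 lower under both scalings.

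**Figure D4:**
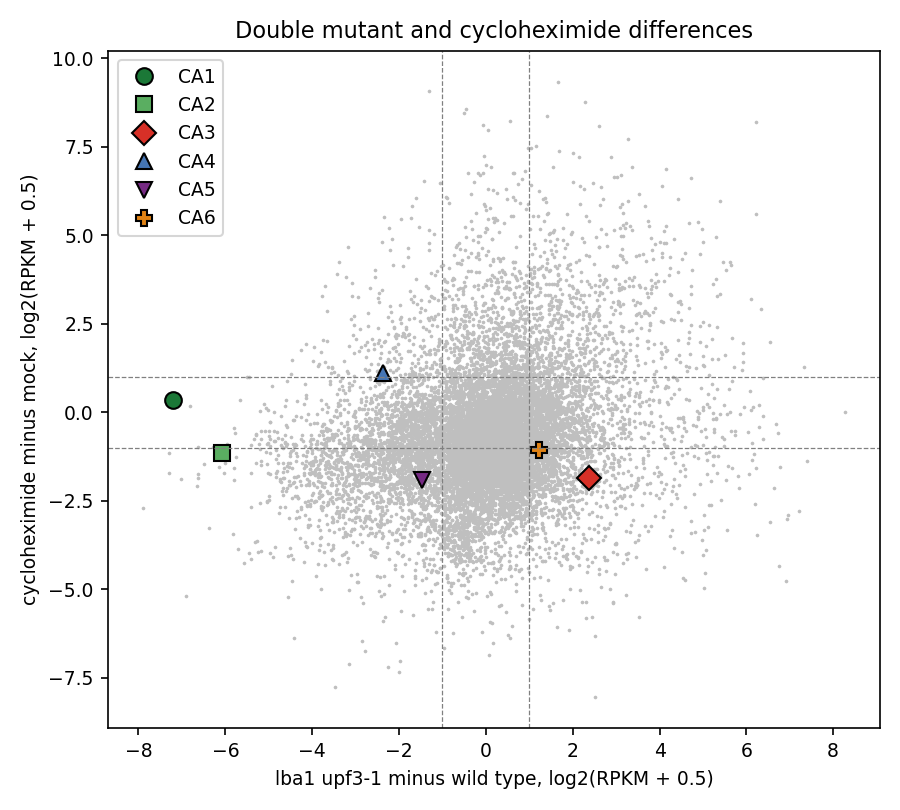
Each grey point is a gene averaging 5 RPKM or more, placed by its difference between lba1 upf3-1 and wild type (x) and between cycloheximide and mock (y), both in log2(RPKM + 0.5). Dashed lines mark 2-fold. CA4 is lower on x at −2.37 and higher on y at 1.1, CA3 and CA6 are higher on x and lower on y, and CA5 and CA2 are lower on both.

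Overlaps with other loci touch some of these values. The TruSeq libraries do not mark the strand of a transcript, so loci on the opposite strand count here as well as those on the same strand. In the TAIR10.1 annotation, 273 of the 1649 exon bases of CA3 lie under AOR, a gene for a chloroplast oxidoreductase on the opposite strand. AOR was at 139.9 RPKM in wild type, 27.3 in mock and 7.36 with cycloheximide, and at 120.4 in lba1, 118.9 in upf3-1 and 9.45 with both mutations. The column with the highest CA3 thus had a low AOR level, and the part of AOR reads in the CA3 values of the other columns was not tested. CA1 shares 343 of 3266 exon bases with LSF1, a gene of starch breakdown on the same strand, which was at 8.61 RPKM in wild type and 16.4 in lba1 upf3-1. With CA1 at 7.78 RPKM in that column, the part of LSF1 reads in it was not tested. CA5 shares 127 of 1602 exon bases with 2 loci, and no overlap was annotated for CA2, CA4 or CA6. For CA5, AT4G33565 on the same strand shares 37 bases and was at 15.8 RPKM in wild type and 38.7 in lba1 upf3-1. AT4G33585 on the opposite strand shares 90 bases and was at 0.048 and 0.102 RPKM. The part of their reads in the CA5 values was not tested.

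Carbonic anhydrases of the alpha and gamma classes catalyse the same reaction or derive from enzymes that do, but are unrelated to the beta class in sequence. Of the 8 alpha genes only ACA1, which encodes a chloroplast-targeted protein, averaged 5 RPKM or more. It was at 49.5 RPKM in wild type, 6.71 in mock and 1.94 with cycloheximide, and at 29.3 in lba1, 31.6 in upf3-1 and 1.78 with both mutations. Its order of columns was like that of CA2, with log2 differences of −4.46 in lba1 upf3-1 and −2.79 in mock. ACA5 and ACA6 were listed at 0 in every column.

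The 5 gamma genes encode parts of mitochondrial complex I, the entry point of the respiratory chain. None was past 2-fold in lba1 upf3-1, where 43.3% of all genes were, from −0.11 for GAMMACAL1 to 0.67 for GAMMACA3, at a median of 0.14. With cycloheximide 4 of the 5 were lower, where 44.1% of all genes were. The 5 ran from GAMMACAL1 at −1.70 to GAMMACA1 at −0.40, at a median of −1.28 against −0.81. After median scaling 0 of the 5 were past 2-fold there, where 6501 of the 14079 genes described were.

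Photorespiration recycles the product of oxygenation by Rubisco and runs in the same leaf cells as CA1 and CA2. All 12 listed genes were lower in lba1 upf3-1, where 21.2% of all genes were, at a median of −4.59 against 0.12 over all genes, from the serine hydroxymethyltransferase gene SHM1 (24.3 against 931 RPKM, −5.23) to the glycerate kinase gene GLYK (19.8 against 103 RPKM, −2.35). CA1 and CA2 lay below the lowest of them. In mock against wild type 11 of the 12 were lower, where 11.9% of all genes were, at a median of −2.08 against 0.15. With cycloheximide 4 of the 12 were lower, where 44.1% of all genes were. The 12 ran from GLDH1, a glycine decarboxylase subunit gene, at −1.66 to PGLP1, a phosphoglycolate phosphatase gene, at −0.23. This median of −0.82 was the same as the −0.81 of all genes to within 0.01. After median scaling 0 of the 12 were past 2-fold, where 6501 of the 14079 genes described were.

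Enzymes that use bicarbonate were lower in lba1 upf3-1 in 7 of the 10 genes described of 11 listed, where 21.2% of all genes were lower, at a median of −1.78 against 0.12. PPC2, a phosphoenolpyruvate carboxylase gene, was at 9.68 against 144 RPKM (−3.83), while PPC1, another gene for that enzyme, was at 80.1 against 70.3 RPKM (0.19). BCCP1, a biotin carrier gene of plastid acetyl-CoA carboxylase, was at −1.98. With cycloheximide 8 of the 10 were lower, where 44.1% of all genes were, at a median of −1.88 against −0.81. The 10 ran from PPC3 (3.97 against 47.8 RPKM, −3.43) to BCCP1 at −0.21.

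Genes of the stomatal response to carbon dioxide, in which CA1 and CA4 act, had 6 of 12 members that averaged 5 RPKM or more. In lba1 upf3-1, 4 of these 6 were lower, where 21.2% of all genes were. The 6 ran from the aquaporin gene PIP2A (53.5 against 255 RPKM, −2.24) to the kinase gene MPK4 at 0.77, at a median of −1.52 against 0.12. Without the filter on low values 9 of the 12 were lower, where 4797 of all 33602 loci were. With cycloheximide 3 of the 6 were lower, near the 44.1% of all genes, at a median of −1.11 against −0.81. The 6 ran from PIP2A (5.04 against 163 RPKM, −4.88) to MPK12, a kinase gene of guard cells, at 0.93. CBC1, a kinase gene that adjoins CA1 on the chromosome, was at 12.1 RPKM in wild type, 9.73 in mock, 1.20 with cycloheximide and 3.12 with both mutations. CA1 and CBC1 were both lowest among untreated columns in lba1 upf3-1, but with cycloheximide CBC1 was at −2.59 and CA1 at 0.36.

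**Figure D5:**
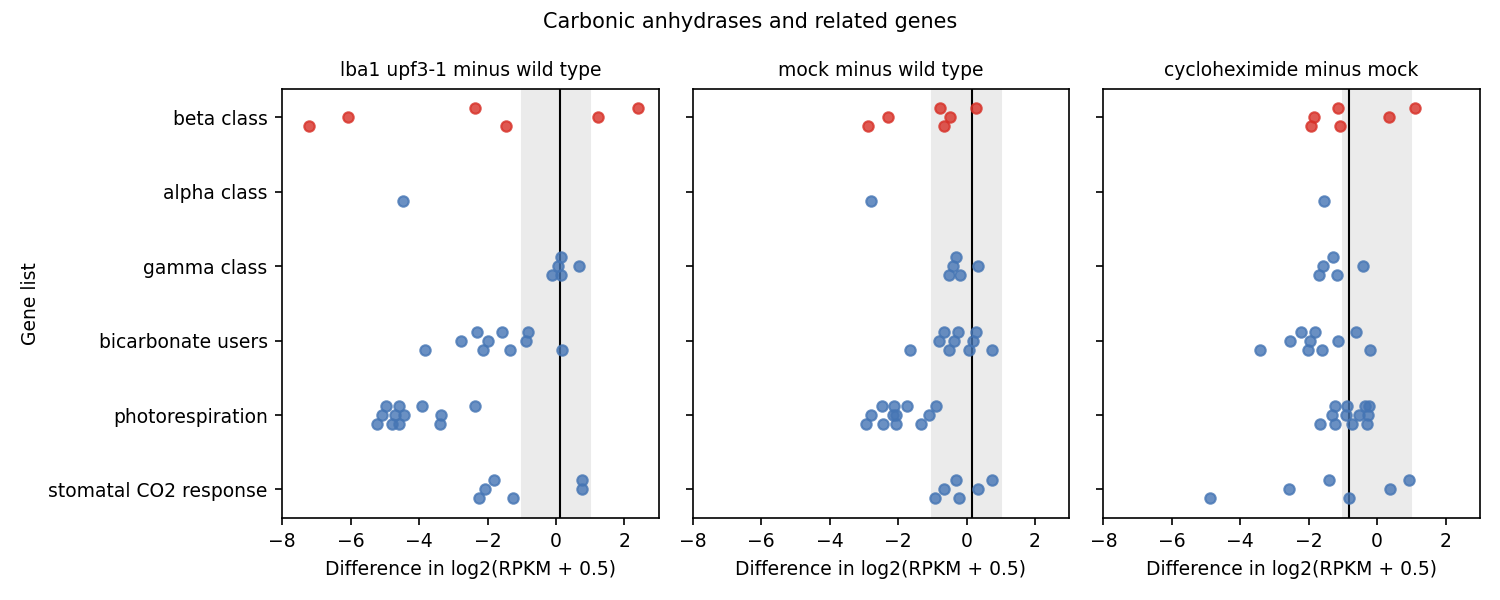
Differences in log2(RPKM + 0.5) of the genes averaging 5 RPKM or more in each list (red, beta class; blue, related lists) in 3 comparisons. The grey band marks differences under 2-fold and the black line the median of all genes described. The beta class spans −7.21 to 2.38 in lba1 upf3-1 against wild type, where the 12 photorespiration genes lie between −5.23 and −2.35.

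The genes most like CA1, CA2 and CA4 were found by the root mean square distance between centred log2(RPKM + 0.5) profiles over the 6 columns. The nearest genes lie below the median distance by selection, so the medians only give a scale. For CA1 they were MIPS1, an inositol phosphate synthase gene (0.58), PnsB1, a subunit gene of the chloroplast NDH complex (0.59), and CA2 (0.63), against a median distance of 2.56. For CA2 they were LrgB, the glycolate and glycerate transporter gene of the chloroplast envelope (0.21), PnsB1 (0.23) and the Rubisco small subunit gene RBCS3B (0.28), against a median of 2.19. CA1 was 76th in that order. For CA4 they were AT1G15730 (0.12), AT1G49230 (0.14) and AT3G01810 (0.15), against a median of 1.26. The first of these was at 19.3 RPKM in wild type, 10.8 in mock, 21.2 with cycloheximide and 2.63 with both mutations. CA3 and CA6 lay farther than the median gene from each of CA1, CA2 and CA4. CA1 (1.72) and CA2 (1.60) also lay farther than the median gene from CA4, and farther than CA6 did (1.47).

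Markers of seedling cell types moved with some of these values. In a bulk sample, fewer cells of a type and less RNA per cell cannot be told apart. None of the 9 markers was at 0 in any column, and leaf, guard cell, root and dividing-cell markers were all detected in wild type. The sum of the 2 mesophyll markers, LHCB1.1 and RBCS1A, was 11123 RPKM in wild type, 4651 in mock and 1584 with cycloheximide, and 9104 in lba1, 9634 in upf3-1 and 379 with both mutations. RBCS1A made up most of this sum, and LHCB1.1 alone was at 1623 RPKM in wild type, 1583 in mock and 3113 in lba1. The sum of the 4 guard cell markers, FAMA, MYB60, KAT1 and GC1, was 116 RPKM in wild type, 110.5 in mock and 76.1 with cycloheximide, and 91.7 in lba1, 125 in upf3-1 and 9.86 with both mutations. GC1 was the largest part of it, at 87.4, 73.6 and 36.4 RPKM in wild type, mock and cycloheximide. MYB60 went the other way, at 10.8, 12.1 and 15.5 RPKM, as did KAT1, at 8.36, 12.5 and 14.4, while FAMA was at 9.75, 12.2 and 9.84. Both sums were lowest in lba1 upf3-1, as were CA1, CA2 and CA4, and their part in those values was not tested. The root markers CASP1 and EXPA7 together were at 9.36 RPKM in wild type and 0.95 in lba1 upf3-1, and KNOLLE, of dividing cells, at 25.2 and 3.72. All 9 markers were lower in lba1 upf3-1 than in wild type, where 21.2% of the genes described were. The log2 differences ran from −1.91 (FAMA) to −5.03 (RBCS1A). EXPA7, which averaged 2.77 RPKM, was not among the genes described.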

How the data were processed

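Total RNA went into the Illumina TruSeq RNA kit, per the labels' protocols. The authors deposited RPKM values with 3 decimals for 33602 loci in 1 column per group of 2 libraries. Per the submitters' processing notes, they used the TAIR10 build. The aligner, the rules of counting, the gene lengths and how 2 libraries gave 1 column were not given in the labels or the file.

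Differences of log2(RPKM + 0.5) were computed for 14079 genes averaging 5 RPKM or more, with 2-fold as the size limit. No model could be fitted to 1 column per group. Depth was inferred from 623 transfer RNA loci, as the total at which low values (up to 8 reads) times gene length came nearest to whole reads. Per column, 86 (cycloheximide) to 114 (lba1 upf3-1) values were used, and the percentages that follow describe this fit. Between 91.9% (cycloheximide) and 97.4% (lba1 upf3-1) of those values came within 0.05 of a whole read, allowing for rounding. Reads per gene were approximated with the shortest transcript of the TAIR10.1 annotation, which also gave names and overlaps but no coordinates or sequences. Of the loci, 32835 were found in it. Intervals are exact Poisson at 95% and cover counting error only. The computations were tested on simulated data. Promoter motifs, though planned, were not analysed here.

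The members and lists were chosen with earlier results of these data known. Genes named are all members, the highest and lowest of each related list in lba1 upf3-1 and with cycloheximide, alpha genes at 5 RPKM or more, all markers, the 3 nearest profiles, UPF1, UPF3 and overlapping loci. Some adjoining loci and some alpha genes under that limit are also named, chosen with their values known. Alternatives were pseudocounts of 0.1 and 1, no filter or a mean of 1 RPKM, median and quantile scaling, and a 1.5-fold rule. Analyses used Python 3.11.15, numpy 2.4.6, pandas 2.3.3, scipy 1.17.1 and matplotlib 3.10.9.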

Additional observations from a re-analysis of the deposited data

How the results depend on the processing

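The number of members past 2-fold stayed within 1.5 times its value in all comparisons and alternatives except the following. In lba1 against wild type it went from 2 to 1 with a pseudocount of 1 (CA3 at −0.99) and to 1 with median scaling (CA6 at 0.88). In upf3-1 against wild type it went from 0 to 1 with quantile normalization (CA1 at −1.02) and to 1 by a 1.5-fold rule. With cycloheximide against mock it went from 5 to 3 with quantile normalization (CA2 at −0.73 and CA6 at −0.43 no longer past it). By the 1.5-fold rule it went from 2 to 4 in mock against wild type and from 1 to 2 in lba1 against upf3-1. Median scaling shifted the median of all genes by −0.14 in lba1, −0.14 in lba1 upf3-1 and −0.13 in mock, each against wild type, and by 0.71 with cycloheximide. Without a filter, 1.36 to 1.64 times as many genes were past 2-fold, and with the 1.5-fold rule 1.30 to 3.64 times. The stomatal list had 6 genes past 2-fold with cycloheximide without the filter, in place of 3, where 11176 of all 33602 loci were. No call of a member changed direction, and the 6 members kept their calls in lba1 upf3-1 against wild type under all alternatives. No paired analysis was possible because the table has 1 column per group, and for the same reason no replicate could be left out. Replicate variation, not depth, is the limit that these data leave unmeasured.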

Other observations

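AT5G14730 beside CA2 and AT1G70420 beside CA4 had high values with cycloheximide, and they are given here because their values were noticed. The locus on the other side, MYB66 for CA2 and AT1G70400 for CA4, was lower with cycloheximide than in mock. Most loci adjoining the other members were lower as well, while AT3G01513 beside CA1 and RLP9 beside CA6 were higher. In that comparison 13.3% of all genes described were past 2-fold higher and 44.1% lower. AT5G14730, which adjoins CA2, was at 4.80 RPKM in wild type, 65.1 in mock and 465 with cycloheximide, and at 5.50 in lba1, 8.62 in upf3-1 and 24.3 with both mutations. CA2 was lower in mock and lower again with cycloheximide, the opposite order to its neighbour in these columns. AT1G70420, which adjoins CA4, was at 5.02 RPKM in wild type, 12.8 in mock and 70.2 with cycloheximide, while CA4 was at 47.1, 29.9 and 64.8 RPKM. Among the alpha genes under the filter, ACA3 was at 1.16 RPKM with cycloheximide, on about 112 reads, and at 0.255 in mock, on about 25 reads. In the untreated columns it rested on about 4 to 10 reads. ACA2, also under the filter, was at 2.45 RPKM with cycloheximide, on about 271 reads, and at 0.659 in mock, on about 75 reads.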
